A study of Mus musculus with 28 samples.

Results

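The autophagy genes considered here were Atg5, Atg7, Atg12, Becn1, Ulk1, Map1lc3a, Map1lc3b, Gabarapl1, Sqstm1 and Tfeb. They were taken as a list of names, and each probe set (a group of short array probes for 1 transcript) that the platform annotation assigned to one of them was included. This gave 10 genes of 18193 named on the array and 28 probe sets of 45037, and none of the 28 was annotated to more than 1 gene. Liver RNA came from C3H/HeN female mice obtained at 5 weeks of age, acclimated for 1 week and then given Lieber's isocaloric liquid diet for 5 weeks. The diet was given ad libitum for 1 week and then at 12 g per day for 4 weeks. The diets contained ethanol plus ellagic acid (EtOH+EA), ethanol plus trans-resveratrol (EtOH+RSV), ethanol alone (EtOH) or water in its place (control), and each polyphenol was taken in at about 50 mg per kg body weight per day. The ethanol diets also held much less of the maltose and dextrin mixture than the control diet. Ethanol and this lower carbohydrate content cannot be told apart in comparisons with the control diet. Mice deficient in the nuclear receptor CAR gave 12 arrays, 3 for each of the 4 diets, and wild-type mice gave 16 arrays, 4 for each diet. How the CAR deletion was made is not given in the sources used here, and RNA was taken from whole liver tissue. The question was whether ethanol, alone or with a polyphenol, changed the mRNA of the autophagy machinery within each genotype.

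Macroautophagy encloses cytoplasm in a double membrane, the autophagosome, and delivers it to lysosomes for digestion. The ULK1 kinase complex starts the process, the lipid kinase complex that contains Beclin 1 marks the site, and a ubiquitin-like conjugation system built from ATG7, ATG12 and ATG5 attaches LC3 and GABARAP proteins to the growing membrane. Cargo receptors such as p62, encoded by Sqstm1, tie material to those proteins, and the transcription factor TFEB drives genes of lysosomes and autophagy. In hepatocytes the pathway degrades damaged mitochondria and lipid droplets, and it is regulated to a large part after transcription, so that mRNA levels do not measure its activity.

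In wild-type liver the clearest change was in Ulk1, which was lower on all 3 ethanol diets than on the control diet. Map1lc3b, the gene of LC3B, was higher than on the control diet in 2 probe sets on EtOH+EA and in 1 on EtOH+RSV, of 3 that varied. In 1 of the 3 it was also higher on EtOH+EA than on EtOH alone, a call that was lost without EtOH+EA replicate 3 or 4. No probe set of the 10 genes passed the test in CAR-deficient liver, where at most 0.344% of all probe sets did. Ulk1 lies on chromosome 5 (110784489 to 110810120) and Map1lc3b on chromosome 8 (121590438 to 121598760) of the mouse build GRCm38.p6. The bases upstream of the transcription start of these genes are shown because these genes carried the calls in opposite directions. They were read 5′ to 3′ on the strand of the gene from RefSeq for GRCm38.p6, and capitals mark GC boxes, the letters GGGCGG on either strand.
Ulk1, chr5:110810121-110810331, minus strand: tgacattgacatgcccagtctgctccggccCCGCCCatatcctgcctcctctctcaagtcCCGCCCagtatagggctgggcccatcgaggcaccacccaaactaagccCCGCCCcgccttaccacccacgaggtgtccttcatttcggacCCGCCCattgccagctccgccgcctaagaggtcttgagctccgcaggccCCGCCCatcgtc
Map1lc3b, chr8:121590188-121590437, plus strand: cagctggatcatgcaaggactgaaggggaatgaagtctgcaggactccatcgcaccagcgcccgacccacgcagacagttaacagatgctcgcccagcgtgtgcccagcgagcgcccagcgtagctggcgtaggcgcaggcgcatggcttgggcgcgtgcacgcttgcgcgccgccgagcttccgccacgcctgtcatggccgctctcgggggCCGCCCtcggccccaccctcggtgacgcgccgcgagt

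The Ulk1 window of 211 bases held 5 GC boxes at 64.9% G and C, and the Map1lc3b window of 250 bases held 1 at 69.6%, against a median of 52.4% over all 32851 windows of the table. The last 39 bases of the Ulk1 window are not shown because the annotated extent of the gene covers them. Of the 7 autophagy genes with an entry (9 windows of 250 bases), 6 held a GC box, namely Atg5, Gabarapl1, Map1lc3b, Sqstm1, Tfeb and Ulk1, and 32.7% of all windows did. A gene was counted if any of its windows held the motif, whereas the shares are of single windows, so count and share are not like measures. An E-box (CACGTG) was found for Atg5 and Atg7 (6.02% of all windows), and for Atg7 it lay within the longer GTCACGTG (1.85% of all windows). Neither TGACNNNGC, the core of the antioxidant response element (10.2% of all windows), nor the FOXO motif TGTTTAC (3.17%) was found in any of the 9 windows, searched on both strands. These matches describe the letters in the windows and say nothing about binding.

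The deposited values are on a log2 scale, summarised by Distribution Free Weighting (DFW), which draws a probe set with little variation close to a constant. A difference on this scale is therefore not a calibrated fold change, and the 2 genotypes, which were summarised apart, are not compared in level. A probe set was called compressed when its standard deviation over the arrays of a genotype was at most 0.01. By this measure 13 of the 28 probe sets were compressed in CAR-deficient liver and 17 in wild-type liver, where 79.3% and 85.3% of all probe sets were. In both genotypes every probe set of Atg7 (4), Atg12 (3) and Tfeb (1) was compressed, so that diets could hardly be compared for the enzyme that activates the conjugation system, its ubiquitin-like protein and the transcription factor. Becn1, the Beclin 1 gene, had 1 of 5 probe sets above the limit in CAR-deficient liver and none in wild-type liver. Atg5 had 3 of 3 above it in CAR-deficient liver and 1 of 3 in wild-type liver, and Ulk1 had 2 of 2 and 1 of 2. All probe sets of Map1lc3a (2), Gabarapl1 (2) and Sqstm1 (2) and 3 of 4 of Map1lc3b were above it in both genotypes. The highest standard deviation below the limit was 0.00048 in CAR-deficient liver and 0.00039 in wild-type liver, and the lowest above it was 0.0698 and 0.0110, both for Map1lc3a (1451290_at).

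**Figure D1:**
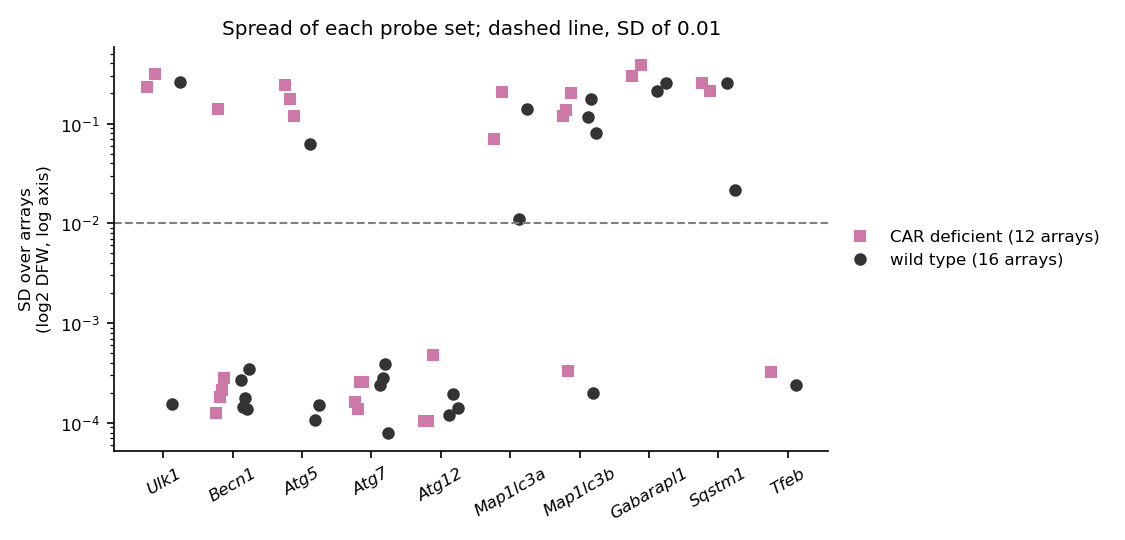
Standard deviation of each of the 28 probe sets over the arrays of a genotype (log2 DFW, log axis), with CAR-deficient liver (12 arrays) left of wild-type liver (16 arrays) for each gene and the limit of 0.01 as a dashed line. Below the line lie 13 of 28 points in CAR-deficient liver and 17 of 28 in wild-type liver, all at 0.00048 or less.

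Array quality and tissue markers were examined before the comparisons. The hepatocyte genes Alb, Apoa1 and Ttr were among the highest probe sets in both genotypes. Alb averaged 27.2 on CAR-deficient and 14.5 on wild-type arrays, so the level scales of the genotypes are not alike. Krt19 of bile duct cells, Cd3e of T cells and Adipoq of fat cells stood above 42.4%, 66.0% and 11.3% of the probe sets in CAR-deficient liver and 45.8%, 68.5% and 12.3% in wild-type liver, and in wild-type liver all 3 were compressed. Nr1i3, the gene of CAR, had values of 8.55 to 9.49 on CAR-deficient and 8.96 to 10.10 on wild-type arrays. Where its probe set (1425392_a_at) lies relative to the deletion is not given in the sources used here, so it does not check the genotype. EtOH replicate 1 of the CAR-deficient mice stood apart, with a mean Pearson's r of 0.983 to the other 11 arrays where those had 0.989 to 0.993. Control replicate 1 of the wild-type mice had the largest excess of 3′ over 5′ Gapdh signal, a sign of RNA quality, at 0.757 where the other wild-type arrays had 0.385 to 0.536. Of 8 Kupffer cell genes, 7 were lower on each of the 3 ethanol diets than on the control diet in wild-type liver. Among these 7 Timd4 was compressed, with differences of -0.00039 on EtOH+EA, -0.00029 on EtOH+RSV and -0.00031 on EtOH. Over all probe sets 8.15% were called lower and 6.06% higher on EtOH+EA, 10.7% and 9.07% on EtOH+RSV, and 3.35% and 2.2% on EtOH. In CAR-deficient liver 0 of the 8 passed, where at most 0.344% of all probe sets did. The median differences of the 8 there were -0.33 on EtOH+EA, -0.23 on EtOH+RSV and -0.34 on EtOH. The summed log2 level of the 8 in wild-type liver was 67.3 to 67.7 on EtOH+EA, 67.0 to 68.1 on EtOH+RSV and 67.1 to 68.2 on EtOH, against 68.9 to 69.9 on the control diet. Other marker lists had fewer calls in wild-type liver. Of 6 endothelial genes, Lyve1 (0.71) and Clec4g (0.17) were higher on EtOH+EA than on the control diet, and Stab2 was lower on EtOH+RSV (-0.39) and EtOH (-0.45). Against EtOH, the endothelial Fcgr2b was higher on EtOH+EA (0.23). Of 6 stellate cell genes, Dcn was higher on EtOH+EA (0.20) and EtOH+RSV (0.14) and Lrat on EtOH+RSV (0.48), beside the compressed Des on both. Among 6 hepatocyte genes, Apoa1 was lower by 0.074 on EtOH+EA and by 0.079 on EtOH, and Cps1 was higher by 0.30 on EtOH+RSV. The remaining calls, in bile duct, neutrophil and fat cell genes, lay in compressed probe sets, and none of these lists had a call in CAR-deficient liver. In whole tissue, fewer cells of a type and less RNA per cell cannot be told apart, and the part of these cells in the autophagy values was not tested.

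Ulk1 encodes the kinase that starts autophagosome formation when nutrients are short. Its variable probe set in wild-type liver (1448370_at) read 8.96, 8.95, 8.69 and 8.85 on the 4 EtOH+EA arrays and 9.0, 8.82, 8.88 and 9.06 on the 4 EtOH+RSV arrays. It read 8.74, 8.80, 8.91 and 8.85 on the 4 EtOH arrays, against 9.21, 9.60, 9.33 and 9.44 on the 4 control arrays. All 12 arrays of the ethanol diets lay below all 4 control arrays, and the 3 ethanol diets overlapped one another. The difference from the control diet was -0.53 ± 0.085 (SE) on EtOH+EA (limma, adjusted p = 0.00175), -0.45 on EtOH+RSV (adjusted p = 0.00413) and -0.57 on EtOH (adjusted p = 0.00416), with n = 4 per diet. These calls held without any one array, and without control replicate 1 the differences were -0.59, -0.51 and -0.63. Against EtOH the difference was 0.04 on EtOH+EA (95% interval -0.15 to 0.22) and 0.11 on EtOH+RSV (-0.07 to 0.30), so a change of Ulk1 by either polyphenol was not detected. The other Ulk1 probe set (1416504_at) was compressed in wild-type liver.

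**Figure D2:**
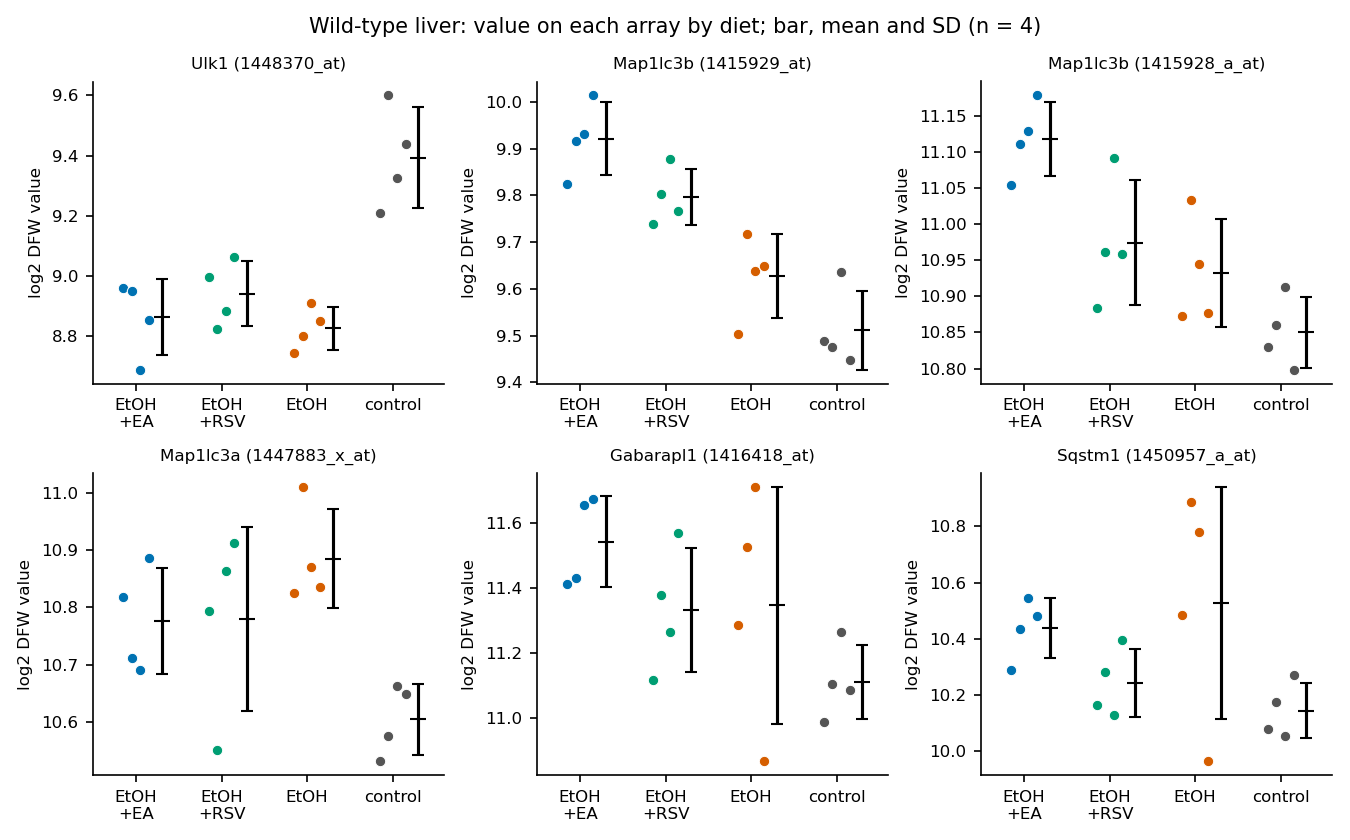
Deposited log2 DFW value on each wild-type array (vertical axis) by diet (horizontal axis) for 6 probe sets of 5 autophagy genes, with the mean and SD of 4 arrays beside the points. Ulk1 lies below all control arrays on each ethanol diet, and Map1lc3b (1415929_at) runs from 9.82 to 10.01 on EtOH+EA against 9.45 to 9.64 on the control diet.

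LC3 proteins are the ubiquitin-like proteins that coat the autophagosome, and Map1lc3b encodes LC3B, its usual marker. Probe set 1415929_at read 9.82, 9.92, 9.93 and 10.01 on EtOH+EA and 9.74, 9.80, 9.88 and 9.77 on EtOH+RSV in wild-type liver. It read 9.50, 9.72, 9.64 and 9.65 on EtOH and 9.49, 9.47, 9.64 and 9.45 on the control diet. Neither polyphenol diet overlapped the EtOH or the control diet, whereas EtOH and control overlapped. Against the control diet it was higher by 0.41 ± 0.055 on EtOH+EA (adjusted p = 0.000645) and by 0.29 on EtOH+RSV (adjusted p = 0.00444), and the difference on EtOH was 0.12 (adjusted p = 0.246). Against EtOH it was higher by 0.29 on EtOH+EA (adjusted p = 0.017), and the difference on EtOH+RSV was 0.17 (adjusted p = 0.18). The call against EtOH was lost without EtOH+EA replicate 3 (adjusted p = 0.0578) or replicate 4 (adjusted p = 0.055) and when only the 8 arrays of these diets were fitted (adjusted p = 0.0963).

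The other Map1lc3b probe sets gave smaller differences. Probe set 1415928_a_at read 11.06, 11.11, 11.13 and 11.18 on EtOH+EA, 10.87 to 11.03 on EtOH and 10.80 to 10.91 on the control diet, and it was higher on EtOH+EA than on the control diet by 0.27 (adjusted p = 0.00277). Its difference between EtOH+EA and EtOH was 0.19 (adjusted p = 0.0612), without overlap of the arrays. Probe set 1415930_a_at read 10.62 to 10.83 on EtOH+EA and 10.57 to 10.66 on the control diet, a difference of 0.11 (adjusted p = 0.138). It averaged 10.59 on EtOH+RSV and 10.60 on EtOH, against 10.61 on the control diet, so it was not higher there. On EtOH+RSV 1415928_a_at read 10.88 to 11.09. Neither of these probe sets was called between EtOH+RSV and control. Over the 16 arrays the correlation with 1415929_at was 0.93 for 1415928_a_at and 0.63 for 1415930_a_at. Probe sets of 1 gene share its RNA and are not replicates.

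Map1lc3a encodes LC3A, a close relative of LC3B. Probe set 1447883_x_at read 10.82, 11.01, 10.87 and 10.83 on the 4 EtOH arrays of wild-type mice, against 10.53, 10.58, 10.66 and 10.65 on the 4 control arrays. These groups did not overlap, and the value was higher on EtOH by 0.28 ± 0.074 (adjusted p = 0.0465). It was 10.69 to 10.89 on EtOH+EA and 10.55 to 10.91 on EtOH+RSV, with no call against either EtOH or the control diet. Probe set 1451290_at was higher on EtOH by only 0.021 (adjusted p = 0.0489). Both calls were lost when any one of the 8 arrays was left out, with adjusted p of 0.0661 to 0.103 for the first and 0.05 to 0.116 for the second. The suffix _x_at marks probes that can bind other transcripts.

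**Figure D3:**
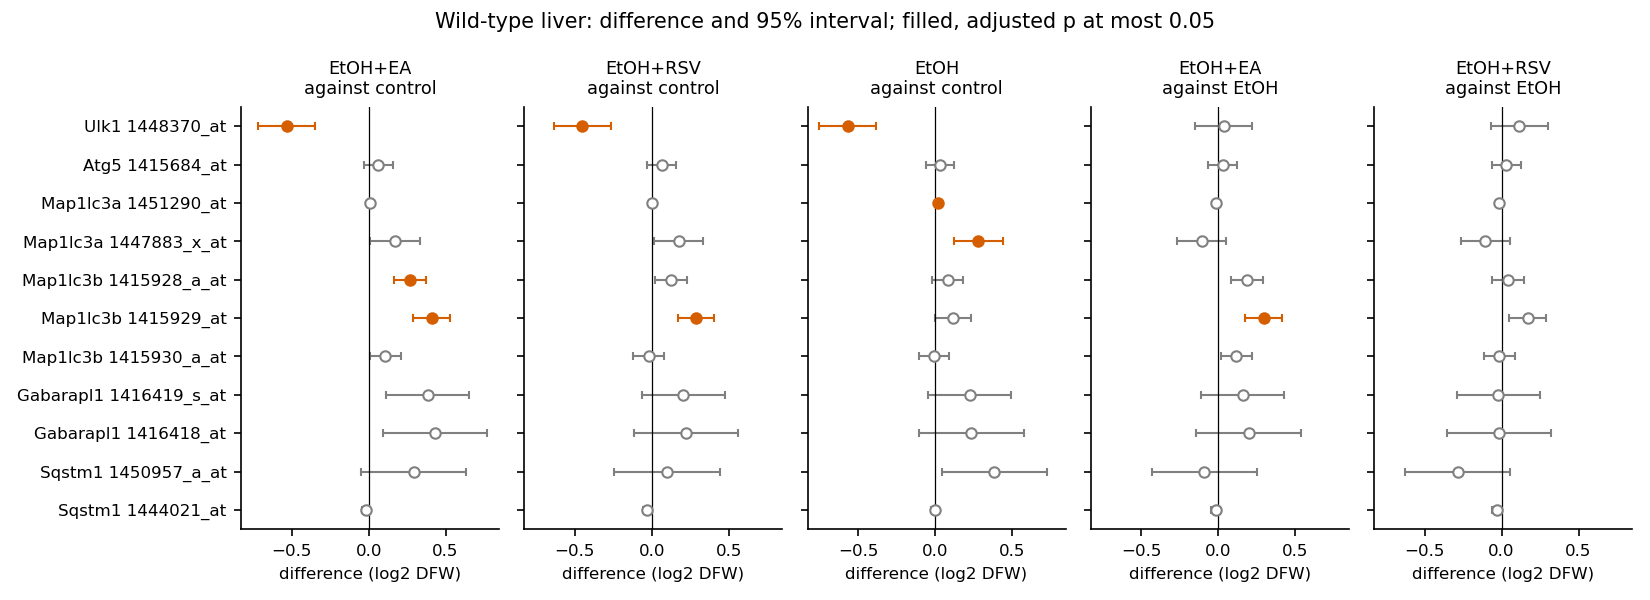
Difference between diets in wild-type liver (log2 DFW, horizontal axes) with its 95% interval from limma for the 11 probe sets above the limit, 1 panel per comparison and 4 arrays per diet. Filled orange points passed the test, and those are Ulk1 against the control diet on all 3 ethanol diets, Map1lc3b on the polyphenol diets and Map1lc3a on EtOH.

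Gabarapl1 encodes a protein of the GABARAP branch of the same family. Probe set 1416418_at read 11.41, 11.43, 11.66 and 11.67 on EtOH+EA and 11.12, 11.38, 11.26 and 11.57 on EtOH+RSV in wild-type liver. It read 11.29, 11.52, 11.71 and 10.87 on EtOH and 10.99, 11.11, 11.26 and 11.09 on the control diet. EtOH+EA lay above all control arrays, and EtOH spread widest, with replicate 5 below every other wild-type array. The difference between EtOH+EA and the control diet was 0.43 ± 0.16 (adjusted p = 0.0859), and 0.38 ± 0.12 for 1416419_s_at (adjusted p = 0.0586). With the replicate number as a block, which the array correlations bear out for these 2 diets, both passed (adjusted p = 0.00705 and 0.00915). The block was fitted over all diets, and EtOH replicate 5 has no same-numbered array, so it adds nothing to the spread there. The differences stayed at 0.43 and 0.38, with SE of 0.074 and 0.070. Whether both passed through pairing or through the loss of this low array from the spread was not tested.

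Sqstm1 encodes p62, which binds ubiquitin on cargo and is itself degraded by autophagy. Probe set 1450957_a_at read 10.29, 10.44, 10.54 and 10.48 on EtOH+EA, and 10.16, 10.28, 10.13 and 10.40 on EtOH+RSV in wild-type liver. It read 10.49, 10.89, 10.78 and 9.96 on EtOH, against 10.08, 10.17, 10.06 and 10.27 on the control diet. EtOH replicate 5 was again the lowest of all 16 arrays, while the other 3 EtOH arrays were above every control array. The difference from the control diet was 0.29 ± 0.16 on EtOH+EA (adjusted p = 0.244, or 0.0273 with the replicate block), 0.10 on EtOH+RSV (adjusted p = 0.696) and 0.38 on EtOH (adjusted p = 0.181). In the block fit EtOH replicate 5 again adds nothing to the spread. The second Sqstm1 probe set (1444021_at) had a standard deviation of only 0.0216 and no call. Over the 16 wild-type arrays the correlation of 1450957_a_at with Gabarapl1 (1416418_at) was 0.80, as a description of arrays that share diets and EtOH replicate 5.

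Atg5 encodes the partner of ATG12 in the conjugate that lipidates LC3. Its variable probe set in wild-type liver (1415684_at) averaged 8.94 ± 0.034 on EtOH+EA, 8.94 ± 0.071 on EtOH+RSV, 8.91 ± 0.092 on EtOH and 8.88 ± 0.031 on the control diet (SD, n = 4 each). No comparison passed, and the largest difference from the control diet was 0.063 on EtOH+RSV (95% interval -0.031 to 0.16). The difference between EtOH+EA and the control diet was 0.062.

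In all, 7 of the 28 probe sets differed between EtOH+EA and the control diet in wild-type liver, where 14.2% of all probe sets did. Of these 3 were higher (6.06% of all) and 4 lower (8.15% of all). Between EtOH+RSV and control 7 differed (19.7% of all), 2 higher (9.07% of all) and 5 lower (10.7% of all). Between EtOH and control 5 differed (5.55% of all), 2 higher (2.2% of all) and 3 lower (3.35% of all). Against EtOH, 1 differed on EtOH+EA (2.37% of all) and 0 on EtOH+RSV (0.364% of all). At an unadjusted p under 0.05 there were 5 and 6. The share of all probe sets at that limit is not given, so these 2 counts are not read further. Of the 11 probe sets above the limit, 3 differed from control on EtOH+EA, 2 on EtOH+RSV and 3 on EtOH, where 41.9%, 44.8% and 17.8% of all probe sets above it did. On so few probe sets these shares show nothing particular to autophagy genes. These 3 comparisons share their control arrays. Of the calls against control, 4 on EtOH+EA, 5 on EtOH+RSV and 2 on EtOH lay in compressed probe sets. They concerned Atg12 (1451746_a_at), Becn1 (1460320_at and 1435219_x_at), Atg7 (1428610_at), Ulk1 (1416504_at), all lower, and Tfeb (1422566_at), higher, and none exceeded 0.00082 in size. After quantile normalization the split was 18 higher and 2 lower on EtOH+EA, 16 and 2 on EtOH+RSV and 15 and 2 on EtOH, where 53.7%, 55.5% and 33.8% of all probe sets were called and 60.7%, 69.1% and 77.2% of those calls were higher, so the direction of compressed probe sets depends on scaling. The median difference of the 11 probe sets above the limit was 0.17 on EtOH+EA, 0.098 on EtOH+RSV and 0.082 on EtOH, against -0.068, -0.077 and -0.040 for all probe sets above it. The count on EtOH+EA was 4 without EtOH+EA replicate 2 or control replicate 3 and 11 with the replicate block, and that on EtOH was 1 to 4 without one array and 2 without control replicate 1.

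The polyphenols were also compared with each other at their equal intake. EA is a lactone formed from tannins and RSV is a stilbene, so they share phenol groups but no common skeleton. Of 28 probe sets 0 differed between EtOH+EA and EtOH+RSV by limma (0.0244% of all did), 3 had an unadjusted p under 0.05, and the rank product method called 4. These 3 were the Map1lc3b probe sets, each higher on EtOH+EA. The difference was 0.12 (95% interval 0.0059 to 0.24) for 1415929_at, 0.14 (0.043 to 0.25) for 1415928_a_at and 0.13 (0.031 to 0.23) for 1415930_a_at, with adjusted p of 0.559, 0.445 and 0.481. For Ulk1 it was -0.079 (-0.26 to 0.11). The shares of all probe sets with an unadjusted p under 0.05 or called by the rank product are not given. The counts by these measures are therefore not read as a result about autophagy genes.

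In CAR-deficient liver 0 of 28 probe sets passed in any of the 6 comparisons. Over all probe sets 0.18% differed between EtOH+EA and control, 0.06% between EtOH+RSV and control, 0.344% between EtOH and control and 0.0% in the others. At an unadjusted p under 0.05 there were 7 probe sets on EtOH+EA, 4 on EtOH+RSV and 2 on EtOH against control, and the rank product method called 2, 2 and 0. The shares of all probe sets by these 2 measures are not given, so these counts are not read as a result about autophagy genes. With 3 arrays per diet and the wider spread of these arrays, the intervals below are broad.

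**Figure D4:**
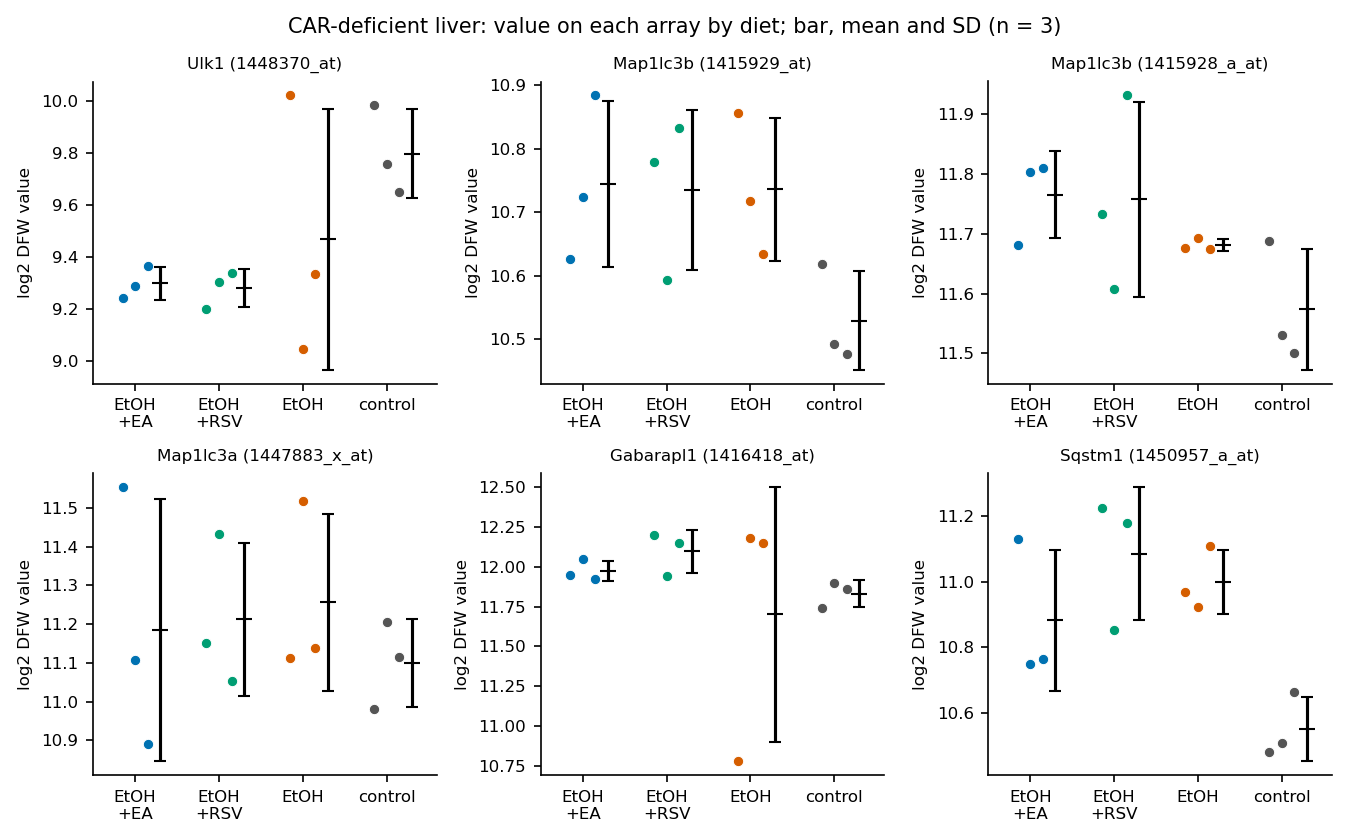
Deposited log2 DFW value on each CAR-deficient array (vertical axis) by diet (horizontal axis) for the same 6 probe sets, with the mean and SD of 3 arrays beside the points. Sqstm1 runs from 10.48 to 10.66 on the control diet and lies above that on every ethanol diet, and 1 EtOH array stands apart in Ulk1 (10.02) and Gabarapl1 (10.78).

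Sqstm1 was the gene with the lowest adjusted p in CAR-deficient liver. Probe set 1450957_a_at read 11.13, 10.75 and 10.76 on EtOH+EA, 11.22, 10.85 and 11.18 on EtOH+RSV and 10.97, 10.92 and 11.11 on EtOH, against 10.48, 10.51 and 10.66 on the control diet. Probe set 1444021_at read 7.47, 7.56 and 7.69 on EtOH+EA, 7.62, 7.32 and 7.35 on EtOH+RSV and 7.51, 7.54 and 7.85 on EtOH, against 7.14, 7.23 and 7.21 on the control diet. In both, all 9 arrays of the ethanol diets lay above all 3 control arrays. The differences from the control diet were 0.33, 0.53 and 0.45 for the first (adjusted p = 0.368, 0.184 and 0.219) and 0.38, 0.24 and 0.44 for the second (adjusted p = 0.224, 0.521 and 0.164), for EtOH+EA, EtOH+RSV and EtOH in that order. None passed the test.

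Ulk1 in CAR-deficient liver (1448370_at) read 9.24, 9.29 and 9.37 on EtOH+EA, 9.20, 9.31 and 9.34 on EtOH+RSV and 10.02, 9.05 and 9.33 on EtOH, against 9.98, 9.76 and 9.65 on the control diet. Both polyphenol diets lay below all control arrays, and on EtOH replicate 1, the array that stood apart, was above them. The difference from the control diet was -0.50 (95% interval -0.99 to -0.0073) on EtOH+EA, -0.52 (-1.01 to -0.024) on EtOH+RSV and -0.33 (-0.82 to 0.16) on EtOH (adjusted p = 0.42, 0.458 and 0.603). Without EtOH replicate 1 the last was -0.61 (adjusted p = 0.119). Probe set 1416504_at differed by -0.43, -0.37 and -0.18 in the same order, without a call. Whether the response of Ulk1 differs between the genotypes was not tested, because the 2 sets of arrays were scaled apart.

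Map1lc3b in CAR-deficient liver (1415929_at) read 10.63, 10.72 and 10.88 on EtOH+EA, 10.78, 10.59 and 10.83 on EtOH+RSV and 10.86, 10.72 and 10.63 on EtOH, against 10.62, 10.49 and 10.48 on the control diet. Its differences from the control diet were close to one another, at 0.22, 0.21 and 0.21 (adjusted p = 0.404, 0.489 and 0.404), and without EtOH replicate 1 that on EtOH was 0.15. Its other probe sets differed less evenly, by 0.19, 0.18 and 0.11 for 1415928_a_at and by 0.030, 0.054 and 0.20 for 1415930_a_at, where EtOH replicate 1 was the highest array and the difference on EtOH was 0.011 without it. Map1lc3a overlapped the control diet on each ethanol diet. Its probe set 1447883_x_at averaged 11.18 ± 0.34 on EtOH+EA, 11.21 ± 0.20 on EtOH+RSV and 11.26 ± 0.23 on EtOH, against 11.10 ± 0.11 on the control diet, and 1451290_at averaged 9.05 ± 0.11, 9.06 ± 0.067 and 9.07 ± 0.070, against 9.003 ± 0.041 (SD, n = 3 each).

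Gabarapl1 (1416418_at) in CAR-deficient liver read 11.95, 12.05 and 11.93 on EtOH+EA, 12.20, 11.94 and 12.15 on EtOH+RSV and 10.78, 12.18 and 12.15 on EtOH, against 11.74, 11.90 and 11.86 on the control diet. Both polyphenol diets lay above all control arrays, by 0.14 and 0.27 on average (adjusted p = 0.928 and 0.866). On EtOH the low value was again replicate 1, and without it the difference was 0.33 (adjusted p = 0.189) where it was -0.13 with it. Probe set 1416419_s_at ran from 12.53 to 12.55 on EtOH+EA, 12.57 to 12.72 on EtOH+RSV and 11.60 to 12.70 on EtOH, against 12.31 to 12.47 on the control diet. Becn1 (1455880_s_at), the subunit that gives the lipid kinase complex its scaffold, averaged 9.76 ± 0.14 on EtOH+EA, 9.77 ± 0.18 on EtOH+RSV, 9.62 ± 0.15 on EtOH and 9.62 ± 0.027 on the control diet (SD, n = 3 each). The 3 Atg5 probe sets differed from the control diet by 0.15 to 0.18 on EtOH+EA, by -0.060 to 0.021 on EtOH+RSV and by -0.18 to 0.028 on EtOH, or -0.036 to 0.072 without EtOH replicate 1.

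The other genes of the pathway were taken from 9 lists with 74 genes, of which 72 had a probe set of their own and 22 were above the limit in wild-type liver (36 in CAR-deficient liver). Each gene was represented by its probe set of highest mean. In wild-type liver 11 were called higher and 7 lower on EtOH+EA than on the control diet, 11 and 11 on EtOH+RSV, and 4 and 4 on EtOH, where 14.2%, 19.7% and 5.55% of all probe sets were called. Of the 22 above the limit these were 9 and 4, 8 and 3, and 4 and 2, where 41.9%, 44.8% and 17.8% of all probe sets above it were called. Against EtOH, EtOH+EA had 2 higher, Bnip3 and the compressed Calcoco1 (2.37% of all probe sets were called), and EtOH+RSV had none (0.364% of all). In CAR-deficient liver none passed in any comparison, where at most 0.344% of all probe sets did. Both calls against EtOH were lost with only the arrays of these diets fitted, and without one array 0 to 3 genes passed. The rank product called 7 genes on EtOH+EA and 7 on EtOH+RSV against EtOH, and at most 2 in any comparison in CAR-deficient liver. The share of all probe sets it called is not given. The genotypes also differ in arrays per diet, so these counts are not compared between them. Under quantile normalization 57, 56 and 47 of the 72 were called against control in wild-type liver, where 53.7%, 55.5% and 33.8% of all probe sets were. With only the arrays of EtOH and control fitted the count on EtOH was 2. Of the counts against control, that on EtOH+EA was 11 without EtOH+EA replicate 4, and that on EtOH was 5 without EtOH replicate 1 or 4 or control replicate 1 or 3. The probe set of largest standard deviation per gene gave 9 higher and 4 lower on EtOH+EA, 10 and 8 on EtOH+RSV, and 4 and 3 on EtOH. Against EtOH that choice gave 1 higher on EtOH+EA and 1 higher on EtOH+RSV.

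Among the kinase complexes, Ulk2, the relative of Ulk1, averaged 8.79 ± 0.062 on EtOH+EA, 8.84 ± 0.038 on EtOH+RSV and 8.84 ± 0.086 on EtOH, against 9.15 ± 0.072 on the control diet in wild-type liver. It was lower by 0.36, 0.31 and 0.31 with adjusted p of 0.000559, 0.00128 and 0.00417, and the call on EtOH was lost with only EtOH and control fitted (0.0606). Both variable genes of the Beclin 1 complex list moved the other way. Atg14, which directs the complex to autophagosome formation, was higher by 0.25, 0.23 and 0.25 on EtOH+EA, EtOH+RSV and EtOH (adjusted p = 0.00076, 0.00112 and 0.00256). Uvrag, which serves later membrane traffic, was higher by 0.42, 0.41 and 0.35 (adjusted p = 0.00705, 0.00691 and 0.0355), and its call on EtOH was lost without EtOH replicate 1, 4 or 5 or control replicate 2, 3 or 4 (adjusted p = 0.0712 to 0.094) and with only EtOH and control fitted (0.127).

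Of the regulators, Foxo1, a transcription factor that insulin signalling restrains, averaged 9.0 ± 0.063 on EtOH+EA, 8.99 ± 0.097 on EtOH+RSV and 8.72 ± 0.15 on EtOH, against 8.38 ± 0.11 on the control diet. It was higher by 0.62, 0.61 and 0.35 (adjusted p = 0.000435, 0.000481 and 0.0242), and the call on EtOH was lost without EtOH replicate 4 (adjusted p = 0.0504) or control replicate 1 (0.053), with only EtOH and control fitted (0.122) and with the replicate block (0.051). Foxo3, its relative, was higher by 0.36 on EtOH+RSV (adjusted p = 0.0143). Mtor, the kinase that restrains autophagy when nutrients are plentiful, was lower by 0.23, 0.42 and 0.30 (adjusted p = 0.0223, 0.000937 and 0.0144), and the call on EtOH+EA was lost without EtOH+EA replicate 1 (0.0603) or control replicate 4 (0.0642) and that on EtOH with only EtOH and control fitted (0.093). On EtOH+EA, Prkaa2, a catalytic subunit of AMP-activated kinase, was lower by 0.33 (adjusted p = 0.0419, or 0.0533 to 0.1 without any one array). Rheb, the activator of mTORC1, was higher by 0.21 (adjusted p = 0.0209, or 0.0636 without EtOH+EA replicate 3 and 0.0534 without replicate 4). Sesn1, a sestrin that restrains mTORC1, was higher by 0.28 on EtOH+RSV (adjusted p = 0.00418) and by 0.21 on EtOH+EA (adjusted p = 0.0204), where the call was lost without EtOH+EA replicate 3 or 4 or control replicate 1 (0.0541 to 0.0598). Between EtOH+EA and EtOH+RSV 0 of the 72 genes differed by limma (0.0244% of all probe sets did) and 3 by the rank product method. The share of all probe sets called by the rank product is not given, so its count is not read as a result about these genes.

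**Figure D5:**
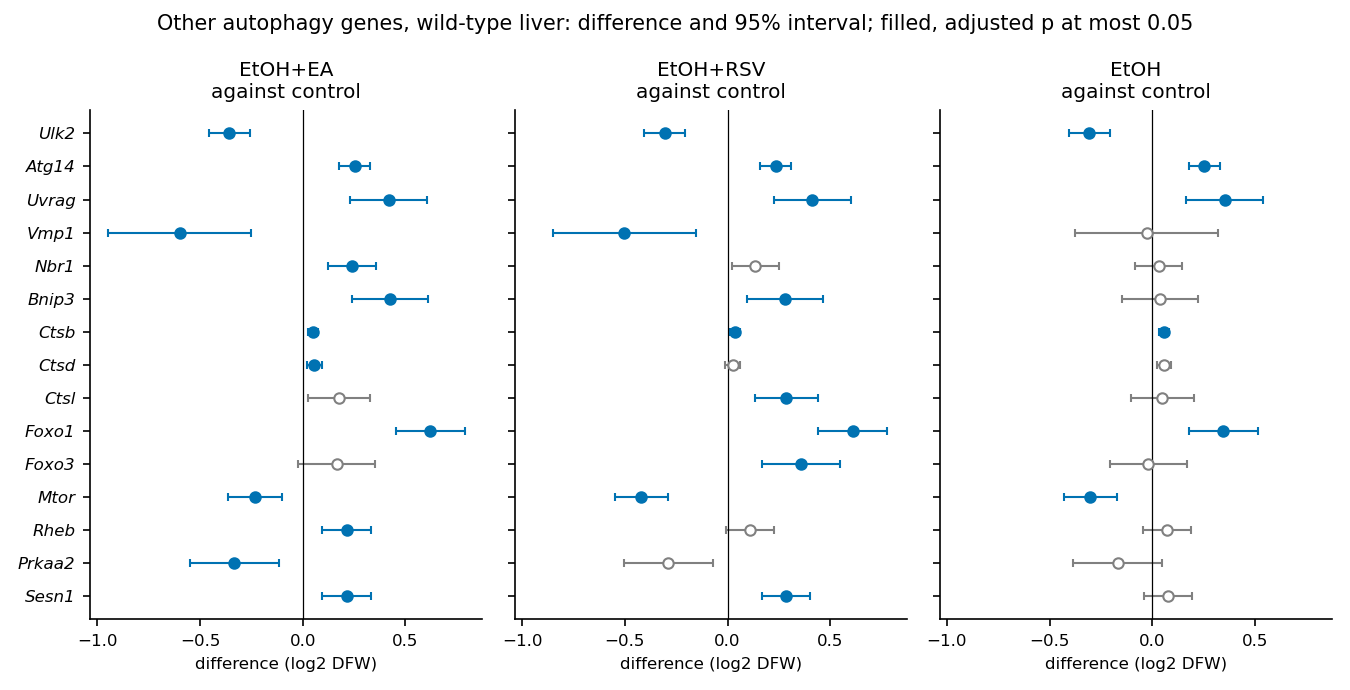
Difference from the control diet in wild-type liver (log2 DFW, horizontal axes) with its 95% interval from limma for 15 other autophagy genes, 1 panel per ethanol diet and 4 arrays per diet. Filled blue points passed the test, and Ulk2 and Mtor lie left of 0 and Atg14, Uvrag and Foxo1 right of 0 in all 3 panels.

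In the membrane and cargo lists, Vmp1, a membrane protein needed for autophagosome formation, was lower by 0.60 on EtOH+EA (adjusted p = 0.0266) and by 0.50 on EtOH+RSV (adjusted p = 0.0453), and the calls were lost without any one of 5 and 6 of the 8 arrays, control replicate 1 among them (adjusted p = 0.0714 and 0.112). Bnip3, a receptor for mitochondria, was higher by 0.42 on EtOH+EA than on the control diet (adjusted p = 0.00595) and by 0.39 than on EtOH (adjusted p = 0.0358), although the arrays overlapped with EtOH. The call against EtOH was lost with only these diets fitted (adjusted p = 0.19) and without EtOH+EA replicate 2, 3 or 4 or EtOH replicate 1, 4 or 5 (0.0722 to 0.116). On EtOH+RSV it was higher than on the control diet by 0.28 (adjusted p = 0.0372, or 0.0526 to 0.0935 without any one array). Nbr1, a cargo receptor related to p62, was higher by 0.24 on EtOH+EA (adjusted p = 0.0103). Among the lysosomal proteases Ctsl was higher by 0.29 on EtOH+RSV (adjusted p = 0.015), and Ctsb and Ctsd moved by less than 0.1. None of the 8 genes of the conjugation machinery was above the limit in wild-type liver.

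The genes whose pattern over the 16 wild-type arrays was most like that of Ulk1 (1448370_at), the autophagy probe set with the largest standard deviation there (0.260), were ranked by Pearson's r among 3854 genes above the limit. They were Col27a1 (r = 0.923), Tff3 (0.907), Tmtc4 (0.899), Tmie (0.888) and Adam10 (0.887). These values describe arrays that share 4 diets and carry no test.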

How the data were processed

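The members and gene lists were chosen with earlier results of these data known. Liver RNA was hybridised to Affymetrix Mouse Genome 430 2.0 arrays, 1 array per mouse, and their number limits the precision. The authors deposited log2 values, summarised by DFW in R, apart for the 2 genotypes. They were used as deposited. The 64 control probe sets were left out, 45037 remained, and 26 of them are blank in CAR-deficient mice. The labels gave the diet and the replicate number of each array, and the wild-type EtOH arrays are numbered 1, 3, 4 and 5. Each genotype had its own limma 3.58.1 fit of all 4 diets (R 4.3.3, lmFit and eBayes), first tested on simulated data. P-values were adjusted after Benjamini-Hochberg across the probe sets, with calls at 0.05 or less. They set a difference against the spread between mice within diets, pooled over the 4 diets and moderated by limma across all probe sets. Differences are the diet named first minus the other.

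All 10 members are reported, the probe sets above the limit by their values and the compressed ones by their calls. Of the 74 other genes, up to 12 per comparison are named, those called with the largest difference, not compressed and without overlap of the arrays. Where a count was 5 or fewer, Bnip3 and Calcoco1 against EtOH were named after their values were seen. Of the probe sets, 34945 name 1 gene, 932 several and 9160 none.

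Same-numbered arrays were checked for pairing by the correlation of their deviations from the diet means. Every pair exceeded 0.1 between EtOH+EA and control in wild-type mice (0.156 to 0.568) and between EtOH and control in CAR-deficient mice (0.292 to 0.409), and the blocked value is given beside the results it changes. The block was fitted over all 4 diets of a genotype, and wild-type EtOH replicate 5 has no same-numbered array.

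Alternatives were the rank product (50 permutations), an unmoderated test, quantile normalization, a filter on the median level or on compressed probe sets, the arrays of 2 diets alone, the replicate block and leaving out each array. No interaction across genotypes was fitted, since DFW rescales each probe set in each genotype. Promoter windows are RefSeq's for GRCm38.p6. Python 3.11.15 was used for tables and figures.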

Additional observations from a re-analysis of the deposited data

How the results depend on the processing

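Of 9 calls in probe sets above the limit, each kept its direction under all alternatives run, and 9 of 9 passed under quantile normalization. The 3 of Ulk1 and the 3 of Map1lc3b against control passed under every alternative, and those of Map1lc3a and of Map1lc3b against EtOH did not. The number of autophagy probe sets called in wild-type mice changed as follows. For EtOH against control (5), it was 3 without moderation, 17 after quantile normalization, 2 with probe sets above the limit only, 2 with 2 diets fitted, and 1 to 4 without one array. For EtOH+EA against EtOH (1), it was 2 by the rank product, 2 above the median level, 2 with probe sets above the limit only, 0 with 2 diets fitted and 0 to 2 without one array. For EtOH+RSV against EtOH (0), it was 2 by the rank product and 2 after quantile normalization, which called 3.17% of all probe sets. For EtOH+EA against control (7), it was 20 after quantile normalization, 11 with the replicate block and 4 to 7 without one array. For EtOH+RSV against control (7), it was 18 after quantile normalization, 3 with probe sets above the limit only and 7 to 8 without one array. For EtOH+EA against EtOH+RSV (0), the rank product called 4. In CAR-deficient mice the rank product called 2 for EtOH+EA against control and 2 for EtOH+RSV against control, where limma called 0. The share of all probe sets called by the rank product or with probe sets above the limit only is not given. The counts by these alternatives are therefore not read as a result about autophagy genes.

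Quantile normalization reversed 9 calls, all in compressed probe sets. The difference on EtOH against control became 0.0039 for Atg7 (1428610_at) and 0.0048 for Ulk1 (1416504_at). On EtOH+EA it became 0.0030 for Atg12 (1451746_a_at), 0.039 for Becn1 (1460320_at) and 0.021 for Becn1 (1435219_x_at). On EtOH+RSV it became 0.0041, 0.046 and 0.029 for the same probe sets and 0.0074 for Ulk1 (1416504_at). Over all probe sets the share called higher moved under it to 60.7% (42.7% as deposited) on EtOH+EA, 69.1% (46.0%) on EtOH+RSV and 77.2% (39.6%) on EtOH against control, and to 85.2% (42.7%) on EtOH+RSV against EtOH. The cause was not tested.

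The replicate block, borne out by the arrays only in 2 comparisons, gave 6809 calls over all probe sets (6398 without it) for wild-type EtOH+EA against control and 12 (155 without it) for CAR-deficient EtOH against control, where it changed no autophagy call. In the other comparisons arrays share only a number, and the block made no more than 1.5 times as many or as few autophagy calls. Of the 72 other genes, 8 were called on EtOH+RSV against EtOH after quantile normalization, where 0 were called as deposited. Over all probe sets 3.17% were called after it and 0.364% as deposited. With probe sets above the limit only, 4 of these genes were called. The share of all probe sets called in that fit is not given, so this count is not read further.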
